A study of Mus musculus with 12 samples.

Results

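The response of mouse aorta labelled smSocs3-KO to 3 days of BAPN + AngII challenge was measured on 6 of the 12 one-colour microarrays of the series, and these 6 arrays were chosen by their sample labels alone. They comprised 3 aortas taken before challenge (replicates 1, 3 and 4) and 3 taken on day 3 (replicates 2, 3 and 5). All 6 samples came from male mice of a mixed 129S5/SvEvBrd, C57BL6 and SJL strain that carried floxed Socs3 alleles together with SM22-Cre, a Cre transgene driven by a promoter active in smooth muscle. Whole aortic tissue was profiled, so cells in which Cre was not active contributed RNA. Challenged mice received β-aminopropionitrile (BAPN) at 150 mg/kg/day, an inhibitor of the lysyl oxidases that crosslink collagen and elastin, together with the pressor hormone angiotensin II (AngII) at 1000 ng/kg/min from osmotic minipumps, a regimen that causes aortic dissection. Mice before challenge received neither agent. A further 6 arrays of littermates with floxed Socs3 and no Cre (WT), 3 before challenge and 3 on day 3, entered the model for the estimate of spread and served for comparison. The labels give no age and do not say that the arrays of a group came from separate animals, so p-values here measure the spread between these samples.

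Interleukin-6 (IL-6) and related cytokines act through the gp130 receptor chain, activate the transcription factor Stat3 and raise acute phase genes, while Socs3, itself induced by Stat3, binds the receptor and limits the signal. Tissue injury also recruits monocytes, which become macrophages that clear debris and express repair genes, and it moves smooth muscle cells from contraction to division and matrix synthesis. Each of these processes is known in aortic dissection.

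Signals are given as log2 intensity relative to the 75th percentile of the same array, in replicate order, and a difference is the day 3 mean minus the mean before challenge ± SE of the fit (n = 3 arrays in each group). A change given without a unit is on this log2 scale, and some genes belong to more than 1 list. Between 57.1% and 61.2% of spots on the 6 arrays were well above background, and no spot was saturated. Slide 1 held replicate 1 before challenge beside the WT arrays, and slide 2 held the remaining 5 of these 6 arrays. It was also the dimmest of the 6, with a 75th percentile of 7.63 on the log2 scale compared with 8.69 to 9.0 on the others. Each difference was therefore computed a second time from the 5 arrays of slide 2, and is called the slide 2 difference. Across genes, arrays of one group had correlations between 0.964 and 0.989 before challenge and between 0.978 and 0.983 on day 3.

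Socs3 itself (probe chr11:117827480-117827539, mm9) had log2 signals of 0.096, 0.97 and 1.29 before challenge and 3.11, 2.09 and 3.93 on day 3. All day 3 arrays lay above all arrays before challenge, with a difference of 2.26 ± 0.53 and a slide 2 difference of 1.91, but the change missed the threshold (limma, adjusted p = 0.0528). On the WT arrays the signals were 0.15, 0.17 and 0.58 before challenge and 2.01, 2.13 and 0.47 on day 3. The mean of Socs3 was thus not lower on the arrays labelled smSocs3-KO than on the WT arrays, before challenge or on day 3, and whether the probe lies inside the deleted part was not given in the sources used here. The arrays are therefore called arrays labelled smSocs3-KO. As in any bulk tissue, fewer cells of a type and less RNA per cell cannot be told apart.

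Of 22769 genes tested, 536 changed on day 3 at a Benjamini-Hochberg adjusted p under 0.05 in the limma fit, which is 2.35% of genes. Among them 356 rose (1.56% of genes) and 180 fell (0.791%). At the threshold used in the study's methods, an unadjusted p under 0.01 with a fold change above 4 or below 0.25, 307 genes rose (1.35%) and 50 fell (0.22%), together 1.57% of genes. All 536 genes had groups that did not overlap, as did 12.8% of all genes with day 3 higher and 16.1% with day 3 lower. Counts of called or non-overlapping members in the lists below are to be read beside these shares of all genes. On the slide 2 arrays all 536 had the same sign, but groups that do not overlap make this certain, so it is no check on the slide. The median ratio of the slide 2 difference to the full difference was 0.944 (range 0.702 to 1.28). For 431 of the 536 the slide 2 difference was at least 1 on the log2 scale.

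The number of genes called moved with the arrays in the fit. With slide as a block 50 genes passed (0.22%), of which 46 were among the 536, and on the slide 2 arrays alone 47 passed (0.206%), of which 30 were among the 536. All WT arrays lay on slide 1, and of the arrays labelled smSocs3-KO only replicate 1 before challenge did. The block therefore amounts to leaving that array out and is no separate check on the slide. Leaving out one array labelled smSocs3-KO gave 50 (before challenge, replicate 1), 38 (replicate 3) or 345 (replicate 4), and 210, 333 or 50 (day 3, replicates 2, 3 and 5). Without a WT array, which moves only the estimate of spread, the count was 172, 166 or 182 (before challenge, replicates 1, 2 and 3) and 649, 370 or 1950 (day 3, replicates 1, 3 and 4). The direction of the calls depended on the scaling, with 66.4% upward relative to the 75th percentile over all probes and 54.1% upward (246 up and 209 down) relative to that over probes well above background on all arrays.

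**Figure D1:**
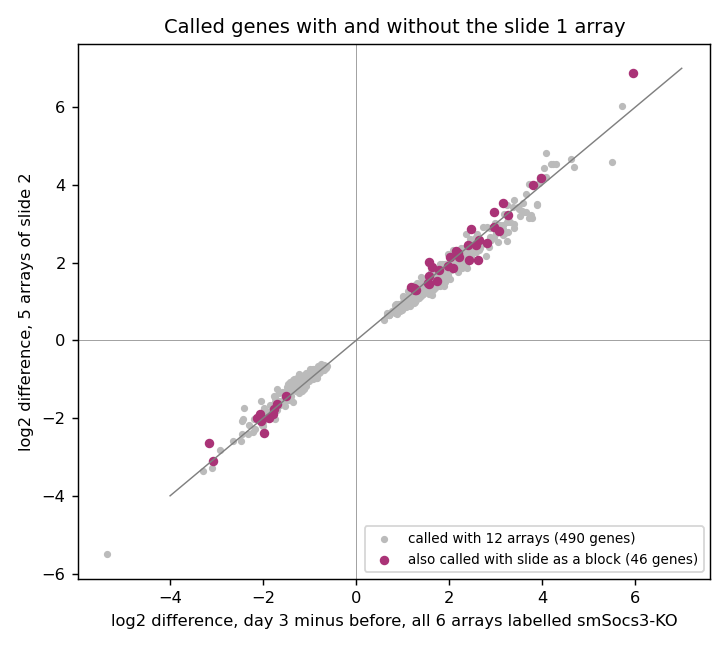
Log2 difference of day 3 minus before challenge over the 5 slide 2 arrays (vertical axis) against the difference over all 6 arrays labelled smSocs3-KO (horizontal axis), 1 point for each of the 536 called genes, with the 46 also called with slide as a block in purple and the line of equal values in grey. All 536 lie on the same side of 0 on both axes, which follows from groups that do not overlap.

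Acute phase genes held several of the rises. Of 19 measured acute phase genes 7 rose (Hp, Serpina3n, Serpina3f, Mt2, Lbp, Mt1 and Cp), none fell, and the median difference of the list was 2.24, compared with -0.10 over all genes tested. Each of the 19 had a higher mean on day 3, and 13 had groups that did not overlap. Hp encodes haptoglobin, which captures free hemoglobin (probe chr8:112099045-112099104, mm9), and its log2 signals were 2.95, 3.70 and 2.65 before challenge and 5.24, 6.68 and 8.17 on day 3. Its difference was 3.60 ± 0.77 (12.1-fold, limma adjusted p = 0.0418), and the highest day 3 value came from replicate 5. Serpina3n, a secreted inhibitor of serine proteases (probe chr12:105651918-105651977), had signals of 2.20, 3.06 and 2.82 before challenge and 5.20, 5.62 and 7.17 on day 3 and rose by 3.30 ± 0.55 (adjusted p = 0.0206), again with replicate 5 highest. Lrg1, a leucine-rich plasma glycoprotein that is not in the list, rose by 3.52 ± 0.63 (adjusted p = 0.0256).

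The metallothioneins, which bind zinc and copper, rose evenly on all day 3 arrays. Mt1 (probe chr8:96704165-96704224) had log2 signals of 6.90, 6.82 and 6.91 before challenge and 8.45, 8.69 and 8.85 on day 3. The arrays of each group lay close together, the groups were far apart, and the difference of 1.79 ± 0.17 (3.45-fold) passed with an adjusted p of 0.00512. Mt2 rose by 2.41 ± 0.25 (adjusted p = 0.00512). Lbp, which carries bacterial lipopolysaccharide to its receptor complex, had signals of 1.78, 2.24 and 2.65 before challenge and 4.08, 4.23 and 4.61 on day 3 and rose by 2.09 ± 0.28 (adjusted p = 0.0113). These 3 genes also passed with slide as a block, whereas Hp, Serpina3n, Serpina3f and Cp did not. Cp, the copper oxidase ceruloplasmin, rose by 0.85 ± 0.18. Saa3, a serum amyloid A gene, differed by 4.23 ± 1.63 with overlapping groups (adjusted p = 0.155), and Lcn2 differed by 1.80 ± 0.70 (adjusted p = 0.16).

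In WT aorta the median difference of the same 19 genes was 0.52. The WT difference was 0.14 for Mt1, 0.13 for Lbp and -0.13 for Cp. It was 1.71 for Hp, 1.69 for Serpina3n, 2.04 for Serpina3f and 1.24 for Mt2. The test of the difference between the genotypes' responses passed for no gene (0% of 22769, with 1254 genes at an unadjusted p under 0.05, and 49 genes at the adjusted threshold with array weights). For Mt1 the response labelled smSocs3-KO exceeded the WT response by 1.65 ± 0.25 (adjusted p = 0.293). For Lbp the excess was 1.96 ± 0.39 (adjusted p = 0.433).

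**Figure D2:**
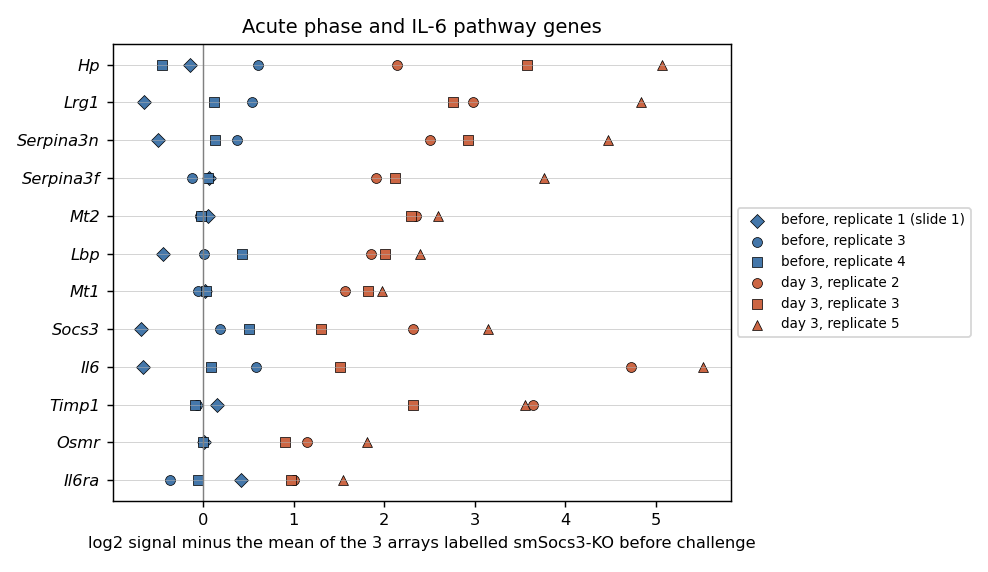
Log2 signal of acute phase and IL-6 pathway genes on each array labelled smSocs3-KO, relative to the mean of the 3 arrays before challenge (horizontal axis), with 1 row per gene, blue markers for arrays before challenge, orange markers for day 3 and marker shapes for replicates. All day 3 markers lie to the right of all markers before challenge. Socs3 and Il6 did not pass the adjusted threshold.

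Among 35 measured genes of the IL-6 and Stat3 pathway 6 rose (Il4ra, Timp1, Osmr, Il6ra, Cebpd and Cebpb), none was called down, and the median difference was 0.48. Of the 35, 31 had a higher and 4 a lower mean on day 3. Groups did not overlap for 15 upward and 1 downward, compared with 12.8% and 16.1% of all genes. Il6, the ligand, had signals of -2.77, -1.52 and -2.03 before challenge and 2.62, -0.59 and 3.41 on day 3. The groups were apart, but replicate 3 lay far below the other day 3 arrays, and the difference of 3.92 ± 1.55 did not pass (adjusted p = 0.162).

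Receptor chains of the pathway also rose. Il6ra, the ligand-binding chain of the IL-6 receptor (probe chr3:89674054-89674113), had signals of 2.15, 1.38 and 1.69 before challenge and 2.74, 2.71 and 3.28 on day 3 and rose by 1.17 ± 0.22 (adjusted p = 0.0347), also with slide as a block, and its slide 2 difference was 1.38. The lowest day 3 array was above the highest array before challenge. In WT it differed by -0.18, and the responses differed by 1.35 ± 0.32 (adjusted p = 0.659). Osmr, the oncostatin M receptor chain, rose by 1.28 ± 0.26 (adjusted p = 0.0394). Cebpd and Cebpb, transcription factors that act with Stat3 at acute phase genes, rose by 1.16 ± 0.26 and 1.11 ± 0.23. Timp1, an inhibitor of matrix metalloproteinases and a known Stat3 target, had signals of 4.32, 4.10 and 4.08 before challenge and 7.81, 6.49 and 7.72 on day 3 and rose by 3.17 ± 0.66 (9.02-fold, adjusted p = 0.0395), with replicate 3 the lowest of the day 3 arrays. In WT Timp1 differed by 3.43, so its rise was not particular to the arrays labelled smSocs3-KO. The other WT differences were 1.63 for Il4ra, 0.87 for Osmr, 0.091 for Cebpd and 0.051 for Cebpb. Stat3 itself differed by 0.69 ± 0.24 with overlapping groups (adjusted p = 0.129).

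Promoter sequence was examined for the motif that STAT proteins bind, TTCNNNGAA, on both strands from 250 bases before to 50 after the start (RefSeq, GRCm38.p6). It was present in 11.5% of the 227 promoters of genes that rose, 13.5% of the 96 of genes that fell and 7.16% of the 12343 promoters of all genes tested. No member of the IL-6 and Stat3 list that was called and had a promoter entry held it. Of the called acute phase genes with a promoter entry, Serpina3n, Mt2, Mt1 and Cp did not hold it either. Serpina3f did, and is shown. It was well above background on 2 of 3 arrays before challenge and rose by 2.60 ± 0.47 (adjusted p = 0.0283). A stretch of 129 bases that runs from 181 to 53 bases before the start, at chr12:104214363-104214491 on the plus strand, is given 5′ to 3′ with the motif in capitals.
Serpina3f: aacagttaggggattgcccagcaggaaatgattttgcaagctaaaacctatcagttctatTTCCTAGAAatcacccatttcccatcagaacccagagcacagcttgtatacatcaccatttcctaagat
The match lies 121 to 113 bases before the start and describes letters only.

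Rises were also called among genes of monocytes and macrophages. Of 21 measured genes of alternatively activated macrophages 8 rose (Chi3l3, Il4ra, Msr1, F13a1, Mrc1, Cd163, Lyve1 and Folr2), none was called down, and the median difference was 1.39. Of the 21, 17 had a higher and 4 a lower mean on day 3. Groups did not overlap for 13 upward and 2 downward, compared with 12.8% and 16.1% of all genes. Chi3l3 (now Chil3, probe chr3:105950485-105950544), a secreted chitinase-like protein, had the largest rise of the genes named by the rule in the methods, with signals of -1.09, -4.21 and -3.49 before challenge and 3.65, 0.98 and 4.45 on day 3. Replicate 1 was the highest of the arrays before challenge and replicate 3 the lowest on day 3, but the groups did not overlap. The difference was 5.96 ± 1.06 (62.2-fold, adjusted p = 0.0256). Il4ra, the receptor chain for the cytokines that drive this macrophage state, had signals of -1.05, -0.62 and -0.72 before challenge and 3.38, 0.95 and 3.09 on day 3 and rose by 3.27 ± 0.65 (adjusted p = 0.0374). Its other probe differed by 1.02. F13a1, a transglutaminase made by resident macrophages, rose by 1.72 ± 0.27 (adjusted p = 0.0179), and the scavenger receptor Msr1 rose by 2.10 ± 0.47 (adjusted p = 0.0472). Mrc1, the mannose receptor, rose by 1.65 ± 0.35, Cd163, the haptoglobin-hemoglobin receptor, by 1.61 ± 0.35, and Lyve1, a hyaluronan receptor, by 1.53 ± 0.29. Arg1, arginase, differed by 3.97 ± 1.63 with overlapping groups (adjusted p = 0.174).

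The MS4A membrane proteins Ms4a6d and Ms4a4a rose on all day 3 arrays to a like extent. Ms4a6d had signals of -2.11, -1.19 and -1.18 before challenge and 2.13, 1.73 and 2.51 on day 3 and rose by 3.61 ± 0.50 (12.2-fold, adjusted p = 0.0128), and Ms4a4a had signals of -1.66, -2.95 and -2.67 before challenge and 0.83, 0.34 and 1.02 on day 3 and rose by 3.15 ± 0.37 (adjusted p = 0.00696). The groups were well apart in both, and Ms4a4a passed with slide as a block. Mefv, which encodes the inflammasome sensor pyrin, rose by 3.37 ± 0.76 (adjusted p = 0.0477), and its other probe differed by 1.40. Tlr13, a sensor of bacterial ribosomal RNA, rose by 2.01 ± 0.31 and Pla2g7, which inactivates platelet-activating factor, by 1.97 ± 0.21, both called with slide as a block.

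Complement genes rose in part, 5 of 20 measured (C5ar1, C1qa, C3ar1, C1qc and Cfb), with a median difference of 0.75. The receptors for complement fragments C5ar1 and C3ar1 rose by 2.03 ± 0.44 and 1.55 ± 0.32 (adjusted p = 0.0437 and 0.0394), and the C1q chains C1qa and C1qc, which macrophages make, rose by 1.92 ± 0.39 and 1.26 ± 0.23. Of 24 lysosomal genes the cysteine proteases Ctss and Ctsc rose, by 2.24 ± 0.45 and 1.57 ± 0.30. None of 9 measured MHC class II genes passed and their median was 0.016, and -0.28 on the slide 2 arrays. Of 21 oxidant and antioxidant genes Hmox1, heme oxygenase, rose by 2.54 ± 0.51 (adjusted p = 0.0391) and Ncf1, a subunit of the phagocyte NADPH oxidase, by 2.10 ± 0.39 (adjusted p = 0.0317).

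Markers of the cell types that the tissue could hold were read beside these results. Of 10 leukocyte and macrophage markers 3 rose (Cd68, C1qa and Cd14), with a median of 1.39, and Cd68 rose by 2.13 ± 0.43. The summed linear signal of the 10, relative to the 75th percentile, was 304, 131 and 140 before challenge (replicates 1, 3 and 4) and 168 to 196 on day 3. The sum included the bright probe of Itgam. The 304 came from the slide 1 array, and the slide 2 arrays before challenge lay below all day 3 arrays. Of 5 measured monocyte markers Chi3l3 and S100a4 rose, and all 5 had groups that did not overlap (summed signal 158 to 174 before challenge and 257 to 320 on day 3). Of 7 neutrophil markers Ly6g rose by 1.54 ± 0.26 (adjusted p = 0.0235), while S100a8 differed by 3.39 ± 1.21 with overlapping groups (adjusted p = 0.131). Of the 7, 4 had a higher and 3 a lower mean on day 3, and 1 had groups that did not overlap. Their median was 1.35, and -0.051 with normexp background correction. The 7 summed to 377 on the slide 1 array before challenge, to 169 and 176 on the slide 2 arrays before challenge and to 171 to 202 on day 3. A further 5 neutrophil markers, Cxcr2, Ngp, Ltf, Mmp8 and Retnlg, had no kept probe. T and B lymphocyte markers had a median of -0.51 and none of 9 passed. White adipocyte markers, 0 of 7 called with a median of 1.18, summed to 39.5 to 75.2 before challenge and to 44.7, 192 and 265 on day 3 in replicates 2, 3 and 5. Red blood cell markers, 0 of 4 called, summed to 154 to 322 before challenge and to 812, 330 and 72.7 on day 3. None of the markers of endothelium, fibroblast, thymocyte, brown adipocyte, mesothelium, Schwann cell and neuron, striated muscle or adrenal cortex passed, and of 6 mast cell markers Kit rose by 1.40 ± 0.31. The summed signals of 3 of these types nonetheless did not overlap between groups. They were higher on day 3 for brown adipocyte (14.6 to 30.7 before challenge and 35.2 to 42.8 on day 3) and fibroblast markers (662 to 721 and 730 to 1024) and lower for striated muscle markers (54.1 to 71.3 and 32.9 to 52.5). The part of these cells in the results was not tested.

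**Figure D3:**
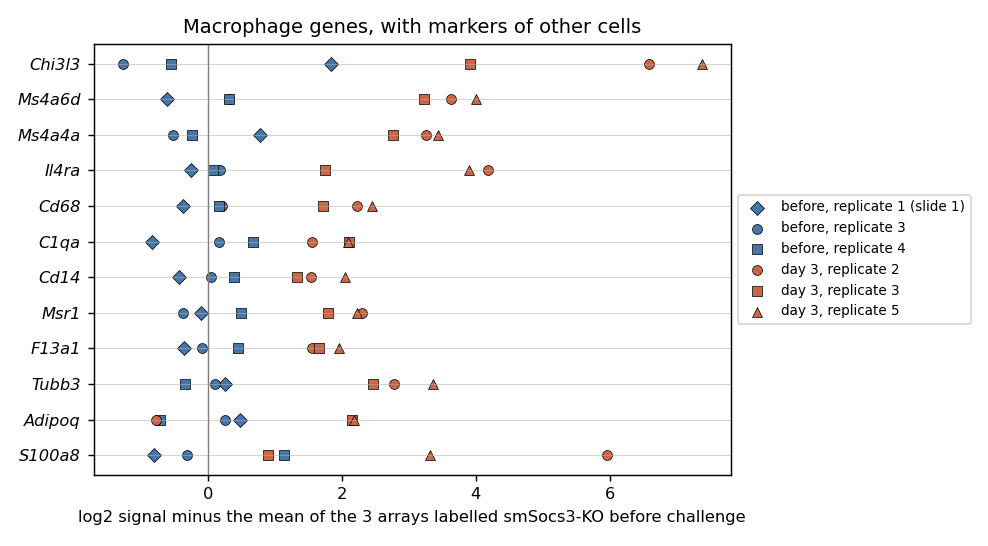
Log2 signal of macrophage genes and of markers of other cells on each array labelled smSocs3-KO, relative to the mean of the 3 arrays before challenge (horizontal axis), with 1 row per gene, blue markers for arrays before challenge, orange markers for day 3 and marker shapes for replicates. Of these genes Chi3l3 had the largest difference. S100a8, Adipoq and Tubb3 did not pass the adjusted threshold.

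Of 23 measured inflammatory cytokine and receptor genes 4 rose (Il1r2, Tnfaip6, Il17ra and Il33), which is 17.4% compared with 1.56% of all genes. The median difference of the 23 was 0.79. Il1r2, a decoy receptor for interleukin-1, was not well above background on any array before challenge and was at least 12.1-fold higher on day 3 (adjusted p = 0.0442). Tnfaip6, a hyaluronan-binding protein of inflamed tissue, had signals of -3.61, -2.77 and -2.40 before challenge and -0.13, 0.61 and 1.66 on day 3 and rose by 3.64 ± 0.76 (adjusted p = 0.0403), with its 2 other probes at 3.39 and 3.46. Il33, an alarmin of stromal cells, rose by 2.12 ± 0.38 and Il17ra, the receptor chain for interleukin-17, by 2.18 ± 0.45. Il1b differed by 1.46 ± 1.04 with overlapping groups.

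Of 27 measured chemokines 3 rose (Cxcl14, Ccl9 and Ccl19), with a median of 1.22. Of the 27, 23 had a higher and 4 a lower mean on day 3. Their groups did not overlap for 14 upward and 2 downward, compared with 12.8% and 16.1% of all genes. Cxcl14 was well above background on 2 of 3 arrays before challenge and had signals of -4.25, -0.70 and -2.31 before challenge and 4.11, 0.87 and 4.27 on day 3. Replicate 3 was the lowest on day 3 and the highest before challenge. Cxcl14 rose by 5.51 ± 1.08 (adjusted p = 0.0365), with a slide 2 difference of 4.59. Ccl9 rose by 2.42 ± 0.47 and Ccl19, a ligand of Ccr7 that attracts lymphocytes and dendritic cells, by 1.22 ± 0.24. The monocyte attractants Ccl2 and Ccl7 differed by 3.94 ± 1.17 and 4.24 ± 1.16, with groups apart, and did not pass (adjusted p = 0.0886 and 0.0748). Among 15 chemokine receptors Ccr8, not well above background before challenge, was at least 2.93-fold higher on day 3. The median of the 15 was 0.47, and as low as 0.031 with normexp background correction. Of these receptors 11 had a higher and 4 a lower mean on day 3. Groups did not overlap for 5 upward and 3 downward, compared with 12.8% and 16.1% of all genes. Of 26 interferon response genes all had a higher mean on day 3, with a median of 1.13, but only Oas3 (at least 2.83-fold higher) and Stat2 (0.93 ± 0.21) passed.

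Of the matrix lists, matricellular genes had 9.09% of members called up and proteases and inhibitors 8%, compared with 1.56% of all genes. The shares were 4.55% for collagen chains and 4.35% for collagen modifying genes. Cthrc1, a secreted collagen triple helix protein of injured arteries, had signals of -3.38, -2.71 and -2.74 before challenge and 1.38, 2.17 and 1.65 on day 3 and rose by 4.67 ± 0.91 (25.5-fold, adjusted p = 0.0356). It rose with Tnfaip6 and Wisp2 (now Ccn5) among 33 matricellular genes, whose median was 0.56. Wisp2, a CCN family protein, rose by 1.57 ± 0.18 (adjusted p = 0.00653) and passed with slide as a block. Of 22 collagen chains Col12a1 alone passed, at 2.59 ± 0.59 (adjusted p = 0.0493), and the median was 0.23. Of 23 collagen modifying genes Loxl2, one of the lysyl oxidases that BAPN inhibits, rose by 1.17 ± 0.23 (adjusted p = 0.0356), while Lox differed by 1.41 ± 0.33 (adjusted p = 0.0525). Of 25 matrix proteases and inhibitors Mmp3, stromelysin, rose by 1.77 ± 0.35 (adjusted p = 0.0368) beside Timp1. In WT the differences were 4.47 for Cthrc1, 1.22 for Wisp2, 2.22 for Col12a1, 1.33 for Loxl2 and 2.15 for Mmp3. These rises were thus not particular to the arrays labelled smSocs3-KO. None of 19 elastic fibre genes or 25 genes of the TGF-beta pathway passed, with medians of 0.19 and 0.008. Pgf, placental growth factor, rose by 1.27 ± 0.27 among 22 genes of endothelial activation.

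Mitosis genes had a median difference of 2.26 over 37 measured genes, and 33 of the 37 had groups that did not overlap, yet 4 passed (Melk, Cdk1, Nuf2 and Pbk). With normexp background correction the median was as low as 1.22. Cdk1, the kinase that drives entry into mitosis, was well above background on 1 of 3 arrays before challenge and had signals of -6.26, -5.15 and -4.01 before challenge and -0.56, -1.52 and -2.18 on day 3. It rose by 3.72 ± 0.77 (adjusted p = 0.0395), a size that rests on dim values before challenge, and the mitotic kinases Melk and Pbk, well above background on 1 and 2 of 3 arrays before challenge, rose by 3.89 ± 0.87 and 3.01 ± 0.67. Nuf2, a kinetochore protein, was at least 4.55-fold higher on day 3. Mki67, the proliferation marker, had signals of -0.66, -0.46 and -0.41 before challenge and 2.95, 1.47 and 0.74 on day 3. The day 3 arrays were all higher but spread widely, and the difference of 2.23 ± 0.73 did not pass (adjusted p = 0.113). All 31 DNA replication genes had a higher mean on day 3, with a median of 1.34, and none passed. In WT aorta the medians were 3.98 for mitosis and 1.84 for DNA replication.

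Cell cycle genes often carry a cell cycle homology region, TTTGAA, near a CCAAT box. TTTGAA was present in 12.3% of promoters of genes that rose, 12.5% of those that fell and 12.5% of all, and CCAAT in 38.3%, 34.4% and 38.3%, each read on both strands, where TTTGAA overlapped TTCNNNGAA in 41 genes and CCAAT in 16. Of the called mitosis genes Melk and Nuf2 held neither motif and Pbk had no promoter entry. Cdk1, which held both, is shown over the 111 bases directly before its start, chr10:69352913-69353023 on the minus strand (GRCm38.p6, RefSeq), 5′ to 3′ with both motifs in capitals.
Cdk1: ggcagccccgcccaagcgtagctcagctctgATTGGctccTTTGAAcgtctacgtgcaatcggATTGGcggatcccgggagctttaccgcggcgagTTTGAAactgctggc
TTTGAA lies 71 to 66 and 15 to 10 bases before the start, and ATTGG, which is CCAAT on the other strand, lies 80 to 76 and 48 to 44 bases before it.

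None of the contractile genes passed, although most had lower means on day 3. Of 30 measured genes 29 had a lower mean, 20 had groups that did not overlap, and the median was -0.65. Myh11, the smooth muscle myosin heavy chain, had signals of 7.59, 6.84 and 6.96 before challenge and 6.05, 6.23 and 5.45 on day 3 and a difference of -1.22 ± 0.33 (adjusted p = 0.0748). Acta2, smooth muscle actin, had signals of 10.10, 9.40 and 9.42 before challenge and 9.12, 9.20 and 9.01 on day 3 and a difference of -0.53 ± 0.20 (adjusted p = 0.144). Replicate 1 before challenge, the array on slide 1, was the highest for both, and the slide 2 differences were -0.99 and -0.30. The 6 smooth muscle markers summed to 2101 to 3207 before challenge and 1484 to 1768 on day 3, and Acta2 and Myh11 were well above background on all 6 arrays. The CArG box, the element that serum response factor binds, was present in 0.44% of promoters of genes that rose, 1.04% of those that fell and 1.48% of all. None of 23 smooth muscle transcription factors passed.

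Among the 180 falls no function list had a called member. Gprasp2, which sorts G protein-coupled receptors for degradation, had signals of 2.75, 2.65 and 2.57 before challenge and 0.096, 0.77 and -0.82 on day 3 and fell 6.22-fold (log2 -2.64 ± 0.46, adjusted p = 0.0246). Cdh4, R-cadherin, had signals of -0.41, -1.14 and -0.76 before challenge and -2.58, -2.76 and -3.55 on day 3 and a log2 difference of -2.19 ± 0.39 (adjusted p = 0.0256). In both genes replicate 5 was the lowest of the day 3 arrays and the groups were well apart. The scaffold genes Grip2 and Lin7b, whose proteins hold receptors at synapses and cell junctions, had log2 differences of -2.03 ± 0.41 and -2.0 ± 0.42 (adjusted p = 0.0394 and 0.0395). Diras2, a small Ras-like GTPase, had signals of 1.48, 1.40 and 0.97 before challenge and -0.061, -0.65 and -1.23 on day 3 and a difference of -1.93 ± 0.32 (adjusted p = 0.0206).

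Other falls were in single genes of varied function. Cd300e, a myeloid receptor, changed by -2.03 ± 0.30 (adjusted p = 0.0176). Akr1c18, which inactivates progesterone, changed by -2.30 ± 0.51, and 2310015B20Rik (now Mrln), a small protein that inhibits the calcium pump of the sarcoplasmic reticulum, by -2.22 ± 0.40. Cdkn2b, an inhibitor of the kinases of the early cell cycle that was singled out after its values were seen, had signals of 1.25, 1.12 and 0.85 before challenge and -0.53, -0.58 and 0.0051 on day 3 and a difference of -1.44 ± 0.23 (adjusted p = 0.0179), compared with 0.37 in WT (test of the difference between responses, adjusted p = 0.293). Atp6ap1l and 4930579P08Rik completed the 10 largest falls, at -2.47 and -3.09. Hrasls (now Plaat1), a phospholipid-metabolising enzyme gene that was well above background on 1 of 3 day 3 arrays, had signals of 0.52, 1.18 and 0.80 before challenge and -5.92, -5.93 and -1.72 on day 3 and was lower on day 3 (adjusted p = 0.0235). With 2 of its 3 day 3 arrays not well above background, no size is given. Gm1574 (now Stmnd1) and 1110032F04Rik were well above background on all arrays before challenge and on none on day 3, and were at least 3.69-fold and 3.62-fold lower. Ltk, of the same kind, was at least 3.95-fold lower and narrowly missed the threshold (adjusted p = 0.0513).

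**Figure D4:**
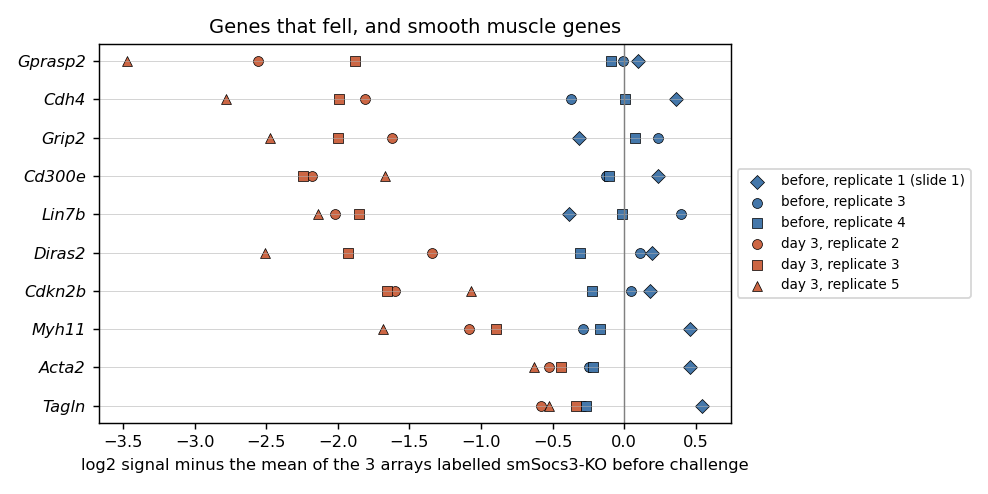
Log2 signal of genes that fell and of smooth muscle genes on each array labelled smSocs3-KO, relative to the mean of the 3 arrays before challenge (horizontal axis), with 1 row per gene, blue markers for arrays before challenge, orange markers for day 3 and marker shapes for replicates. Myh11, Acta2 and Tagln lay lower on day 3 and did not pass the adjusted threshold, whereas the other genes did.

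Other rises lay outside these lists. Cyp2b10, a cytochrome P450, had signals of -2.92, -1.64 and -1.87 before challenge and -0.12, 3.23 and 2.12 on day 3 and rose by 3.89 ± 0.86 (adjusted p = 0.0455). Every day 3 array lay above every array before challenge, whereas WT differed by -0.49, and the test of the difference between responses gave 4.38 ± 1.22 (adjusted p = 0.745). Por, the reductase that supplies P450 enzymes with electrons, rose by 1.54 ± 0.18 (adjusted p = 0.00696). Kng1, kininogen, rose by 3.40 ± 0.67, 1100001G20Rik (now Wfdc21), a secreted whey acidic protein, by 3.39 ± 0.73, and Ahsg, the plasma glycoprotein fetuin-A, by 2.57 ± 0.27. Mup17 and Mup19, major urinary proteins of a family whose near-identical members can share a probe, rose by 2.61 ± 0.42 and 2.81 ± 0.37. In WT they differed by 2.35 and 2.63. Probes of 1 gene did not always agree, since Krtap11-1, a keratin-associated protein, rose by 3.57 ± 0.56 while its other probe differed by -1.08, and the lipid kinase gene Pip5k1a rose by 3.27 ± 0.30 while its other probes differed by -0.50 and -0.10. B430306N03Rik rose by 3.28 ± 0.72. Dbc1 (now Brinp1) and Gm6522 were not well above background before challenge and were at least 17.1-fold and 25.3-fold higher on day 3.

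The 46 genes that passed with slide as a block as well comprised 34 rises and 12 falls, and 34 of the 46 had a RefSeq symbol. Beside the genes given above, the interferon-inducible Schlafen genes Slfn4 and Slfn1 were at least 4.05-fold and 1.96-fold higher on day 3. Mfsd2a, a transporter of lysophospholipids that was well above background on 1 of 3 arrays before challenge, rose by 3.81 ± 0.50, the lectin-like ligand gene Clec2d by 2.96 ± 0.40, the alkaline phosphatase Alpl by 2.64 ± 0.35 and the interleukin-3 receptor chain Il3ra by 2.43 ± 0.35. Fkbp5, a co-chaperone that the glucocorticoid receptor induces, had signals of 2.03, 0.69 and 1.04 before challenge and 2.91, 3.97 and 4.30 on day 3 and rose by 2.47 ± 0.41 (adjusted p = 0.0225). Its 3 day 3 values lay above all values before challenge. Smaller rises were those of Samhd1, an enzyme that degrades deoxynucleotides, at 1.27 ± 0.17, and Gpt2, the mitochondrial alanine aminotransferase, at 1.28 ± 0.16. Col28a1, a collagen chain outside the list, was at least 1.25-fold higher. The falls with a symbol were Asb16 (-2.04 ± 0.24), Apol10a (-1.99 ± 0.34), Krtap16-10 (-1.71 ± 0.22) and Krtap16-8 (-1.51 ± 0.18), of which Asb16 and Apol10a were well above background on 2 of 3 day 3 arrays.

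The remaining lists held 0 or 1 calls. Bhlhe40, a repressor of the circadian clock, rose by 1.92 ± 0.36 (adjusted p = 0.0345) among 18 clock genes, Manf, a secreted protein of the stressed endoplasmic reticulum, by 1.40 ± 0.31 among 23 chaperone genes, and Pfkfb3, which stimulates glycolysis, by 1.40 ± 0.22 (adjusted p = 0.0179) among 21 glycolysis and hypoxia genes. The clock genes moved both ways, from -3.40 to 2.18, with 12 higher and 6 lower means on day 3. Clock gene groups did not overlap for 4 upward and 3 downward, compared with 12.8% and 16.1% of all genes. None of 18 immediate early genes, 29 genes of oxidative phosphorylation or 11 genes of the renin-angiotensin system passed, and the median of the first was 0.28, of the second 0.045 and of the third 0.22. On the slide 2 arrays these medians were 0.33, -0.016 and -0.25. Among the renin-angiotensin genes Agtr1a, the main AngII receptor, differed by -1.35 ± 0.54 with overlapping groups (adjusted p = 0.167). Of the 19 measured genes whose proteins the study examined, Ly6g alone passed.

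**Figure D5:**
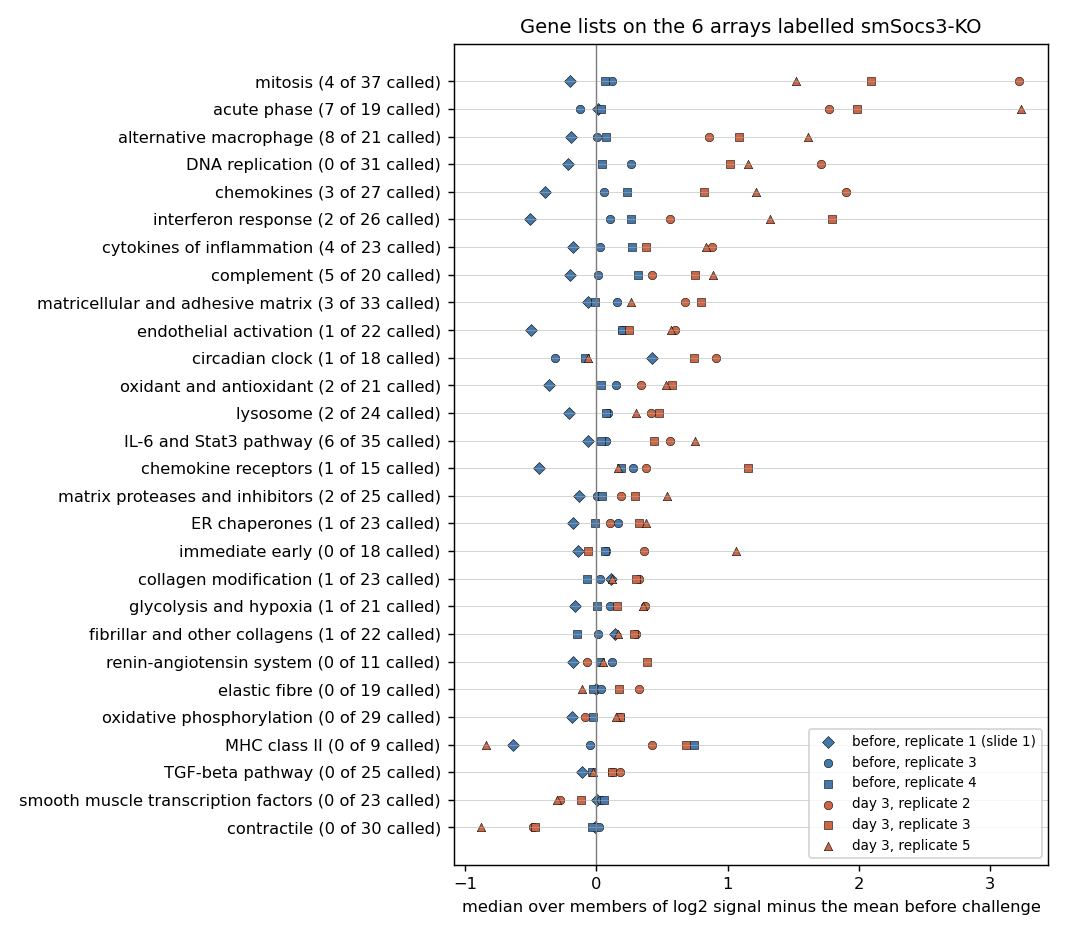
Median over the members of each function list of the log2 signal relative to the mean before challenge (horizontal axis), on each of the 6 arrays labelled smSocs3-KO, with blue markers for arrays before challenge, orange markers for day 3, marker shapes for replicates and the number of members called out of those measured. For mitosis and acute phase genes, with median differences of 2.26 and 2.24, all day 3 arrays lie to the right, and for contractile genes, with a median difference of -0.65, all lie to the left.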

How the data were processed

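Total aortic RNA was amplified, labelled with Cy3 and hybridised to Agilent mouse expression arrays. For every array the authors deposited its scanner output, in which the processed signal is a linear intensity per spot after background subtraction and spatial detrending (Feature Extraction 10.7.1.1 in the file headers, 9.5.1.1 in the submitters' processing notes), and a table of processed intensity values.

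From these, log2 of the processed signal minus the 75th percentile of the array was taken. Control spots and outlier marks were left out, spots of a probe averaged, and probes retained that exceeded background clearly on every array of 1 or more groups (32291 of 55681 probes). The brightest kept probe stood for each of 22769 genes, of which 15783 had a RefSeq symbol. Positions of probes follow the scanner output (mm9), and their exon annotation was not used here. All 12 arrays were fitted with 4 group means in limma 3.58.1 (R 4.3.3) with Benjamini-Hochberg adjustment. The model was tested on simulated data. A probe not well above background in a group gave only a lower bound of the fold, from the lowest signal well above background. An exact permutation test of 3 against 3 arrays cannot give a p below 0.1.

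Genes and lists were chosen with earlier results of these data known. Named were the 14 largest rises and 10 largest falls among called genes well above background on all 6 arrays, with a symbol, groups apart and a slide 2 difference of at least 1, the first 2 and up to 4 called members of each function list (2 for marker lists), the genes of the study's proteins, and the 3 largest bounds each way. Members of these that did not pass and lay near 0 are covered by the median of their list. Genes called with slide as a block, further called list members, glucocorticoid-induced genes, Cdkn2b, Hrasls, Thbs1, Spp1, Tubb3 and genes with opposite responses were added after their values were seen. The Serpina3f promoter was added after the motif matches were seen. Another 16 settings and the omission of each array were tried. The groups labelled smSocs3-KO share replicate number 3, whose deviations had a correlation of 0.081, and the WT groups share 1 and 3, with correlations of -0.037 and -0.30, so the numbers were not taken to pair samples. The RefSeq promoter table (GRCm38.p6) lists several starts for some symbols, and the first was used.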

Additional observations from a re-analysis of the deposited data

Results flagged for a closer look

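For 6 of the 536 called genes, day 3 arrays lay wholly above those before challenge in 1 genotype and wholly below in the other. The same held for 96 of the 22769 genes tested. All 536 called genes had groups labelled smSocs3-KO that did not overlap. The response labelled smSocs3-KO minus the WT response was 4.53 for Adora2a, an adenosine receptor, 2.50 for Fam13a, 1.22 for Deptor, an inhibitor of mTOR, 1.21 for Igfbp4, which binds insulin-like growth factors, -2.84 for Diras2 and -1.76 for Tiam2. Adora2a rose by 3.04 ± 0.54 on the arrays labelled smSocs3-KO and differed by -1.49 in WT. Deptor rose by 0.67 ± 0.15 and differed by -0.55 in WT, and its other probe differed by -0.21 on the arrays labelled smSocs3-KO. The limma test of the difference between responses passed for none of the 6, with adjusted p between 0.293 and 0.401. All but 1 of the arrays labelled smSocs3-KO and none of the WT arrays lay on slide 2. With slide as a block 0 genes passed this test. That block amounts to leaving out the array labelled smSocs3-KO on slide 1, so it does not separate slide from genotype.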

How the results depend on the processing

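None of the genes whose values are printed reversed direction under an alternative or omission that measured it. The medians of the acute phase, mitosis and contractile lists kept their sign, with ranges of 1.62 to 2.35, 1.22 to 2.69 and -0.73 to -0.31. Several list medians near 0 changed sign, among them renin-angiotensin (-0.25 to 0.31) and MHC class II (-0.32 to 0.52). For called genes the omission of an array could not reverse the direction, because their groups did not overlap. The number of calls moved much more. The 536 genes at the adjusted threshold became 176 without the filter on dim probes, 26 with ordinary variances, 343 with only the arrays labelled smSocs3-KO, 47 with only those of slide 2, 50 with slide as a block, 278 with slide as a random block and 3643 with array weights. The 357 genes at the study's threshold became 112 and 109 with normexp background correction (75th percentile and quantile), 173 with probes well above background on all arrays, 237 with ordinary variances and 226 with slide as a block. The 0 genes whose response differed between genotypes became 49 with array weights. With the replicate number as a block, 1 and 147 genes passed at the adjusted and the study's threshold, and 0 in the test between responses. The groups labelled smSocs3-KO share only number 3, with a deviation correlation of 0.081 compared with -0.057 to 0.068 for the other pairs. Omission of 1 array gave 38 to 1950 genes at the adjusted threshold, 226 to 398 at the study's and 0 to 10 in the test between responses. Of the 109 called genes named in the text, 28 also passed with slide as a block, which amounts to leaving out replicate 1 before challenge. The cause of these movements was not tested. The 3 arrays per group limit the precision, and 432 of the 536 genes were well above background on all 6 arrays.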

Other observations

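Genes that the glucocorticoid receptor is known to induce were looked up after Fkbp5 had been seen among the genes called with slide as a block, and as a list chosen from its values they were given no test. Fkbp5 rose by 2.47 ± 0.41, with a WT difference of 0.73. Tsc22d3, which encodes the glucocorticoid-induced leucine zipper, had signals of 4.0, 2.20 and 2.81 before challenge and 3.8, 5.34 and 4.58 on day 3 and a difference of 1.57 ± 0.51 (limma adjusted p = 0.109), with a slide 2 difference of 2.07. Hif3a rose by 2.08 ± 0.40 (adjusted p = 0.0359), with -0.43 in WT, but its other probe differed by -0.27. Glul, glutamine synthetase, differed by 0.82 ± 0.33 (adjusted p = 0.173).

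Tubb3, a tubulin known from neurons and dividing cells, was an exception among 8 measured Schwann cell and neuron markers, whose median was -0.009. It had signals of -2.97, -3.11 and -3.56 before challenge and -0.44, -0.75 and 0.14 on day 3 and a difference of 2.86 ± 0.76 that did not pass (adjusted p = 0.0717), with groups that did not overlap. Thbs1, a matricellular protein, and Spp1, osteopontin, also had large differences that did not pass, 3.18 ± 0.81 (adjusted p = 0.0648) and 4.21 ± 1.17 (adjusted p = 0.0774).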
